A study of Homo sapiens with 9 samples.

Results

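The 9 genes described here encode factors of nonsense-mediated decay (NMD) other than UPF1: UPF2, UPF3A, UPF3B, SMG1, SMG5, SMG6, SMG8, SMG9 and NBAS. They were taken from a list of names and make up 9 of the 58214 genes in the quantified annotation. All 9 were abundant enough to be tested, and 86 of the 198775 matched transcripts belong to them. The RNA came from K562, an erythroleukaemia cell line of human origin that the labels also spell K652, and was sequenced after poly(A) selection. Per the study's methods, cells received the same siRNA again on day 3 and were harvested on day 4 after the first transfection. The groups were a non-targeting siRNA pool (SCR), an siRNA pool against DHX34 and siRNA against UPF1, with 3 libraries in each, all in parental K562 cells. The study's methods call the libraries biological replicates. All derive from a single line, so p-values here measure the spread between these libraries. In bulk RNA, fewer cells of a type and less RNA per cell cannot be told apart.

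NMD degrades transcripts on which a ribosome terminates too early or too far from the 3′ end. The helicase UPF1 is recruited to the terminating ribosome, UPF2 and the UPF3 proteins connect it to exon junction complexes downstream, the kinase SMG1 with its partners SMG8 and SMG9 phosphorylates it, and SMG5 and SMG6 act on the phosphorylated form. Several of these factors are known to be encoded by mRNAs that are themselves NMD substrates, so that their mRNAs accumulate when the pathway is impaired. DHX34 is a helicase that was described as an activator of UPF1 phosphorylation, and the comparisons below ask which of the factors' mRNAs rose when DHX34 or UPF1 was depleted.

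Each member of the UPF3 pair has a cassette exon by which coding transcripts of the gene differ. Both sequences are shown because the shares of these transcripts are described below. They are printed 5′ to 3′ on the strand of the gene with the exon in capitals and 15 bases of the neighbouring exons in lower case. The exon of UPF3B lies at chrX:119840646-119840684 on the minus strand of GRCh38, is exon 8 of the 11 exons of the transcript UPF3B-201, and is absent from UPF3B-202. The exon of UPF3A lies at chr13:114286302-114286400 on the plus strand, is exon 4 of the 10 exons of UPF3A-202, and is absent from UPF3A-201. Both lie in coding sequence and have the length of a whole number of codons, 13 for the 39 nt of UPF3B and 33 for the 99 nt of UPF3A, so that skipping either one keeps the reading frame.
UPF3B exon 8: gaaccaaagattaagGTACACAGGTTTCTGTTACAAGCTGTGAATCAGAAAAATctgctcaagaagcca
UPF3A exon 4: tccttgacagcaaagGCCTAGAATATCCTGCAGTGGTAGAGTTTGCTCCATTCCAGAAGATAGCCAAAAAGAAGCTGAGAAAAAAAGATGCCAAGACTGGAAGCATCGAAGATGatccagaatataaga

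Library totals ran from 73478797 to 103625443 expected counts, the number of reads that the quantifier assigns to a transcript, which need not be whole. The siRNA targets followed their labels: DHX34 fell from 73.6 ± 1.15 to 31.4 ± 2.26 CPM upon its own depletion, and UPF1 from 261.3 ± 8.31 to 105.6 ± 1.58 CPM (SD, n = 3). CPM here is a gene's count relative to the library total, scaled by the edgeR TMM factors. The sum of 7 erythroid K562 markers was 10980 to 11980 CPM in SCR, 9032 to 10250 CPM in DHX34-depleted and 6766 to 7181 CPM in UPF1-depleted libraries, while 4 markers of HeLa cells summed to at most 0.464 CPM, EGFR being at 0 in all 6 knockdown libraries and at most 0.0285 CPM in SCR. Most of this sum came from the globins HBG1, HBG2 and HBE1, and the other markers did not all follow it: the transferrin receptor TFRC averaged 802.9 CPM in SCR, 871.7 in DHX34-depleted and 1063 in UPF1-depleted libraries, and the erythroid transcription factor GATA1 263.6, 268.5 and 216.1 CPM. The part of these marker differences in the results on NMD factors was not tested.

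Upon UPF1 depletion, 7 of the 9 factors rose and none fell. These were SMG1 (1.54-fold), UPF2 (1.42-fold), SMG5 (1.42-fold), SMG6 (1.34-fold), UPF3A (1.18-fold), SMG9 (1.18-fold) and UPF3B (1.17-fold). NBAS and SMG8 did not pass the test. A gene was called changed at an edgeR adjusted p of at most 0.005, and by this rule 12.4% of all 17184 tested genes were higher and 12.9% were lower. The median log2 fold change of the 9 factors was 0.24, beside 0.02 over all tested genes. For 8 of the 9 factors the CPM of the UPF1-depleted and SCR libraries did not overlap, a separation that 50.5% of all tested genes showed.

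**Figure D1:**
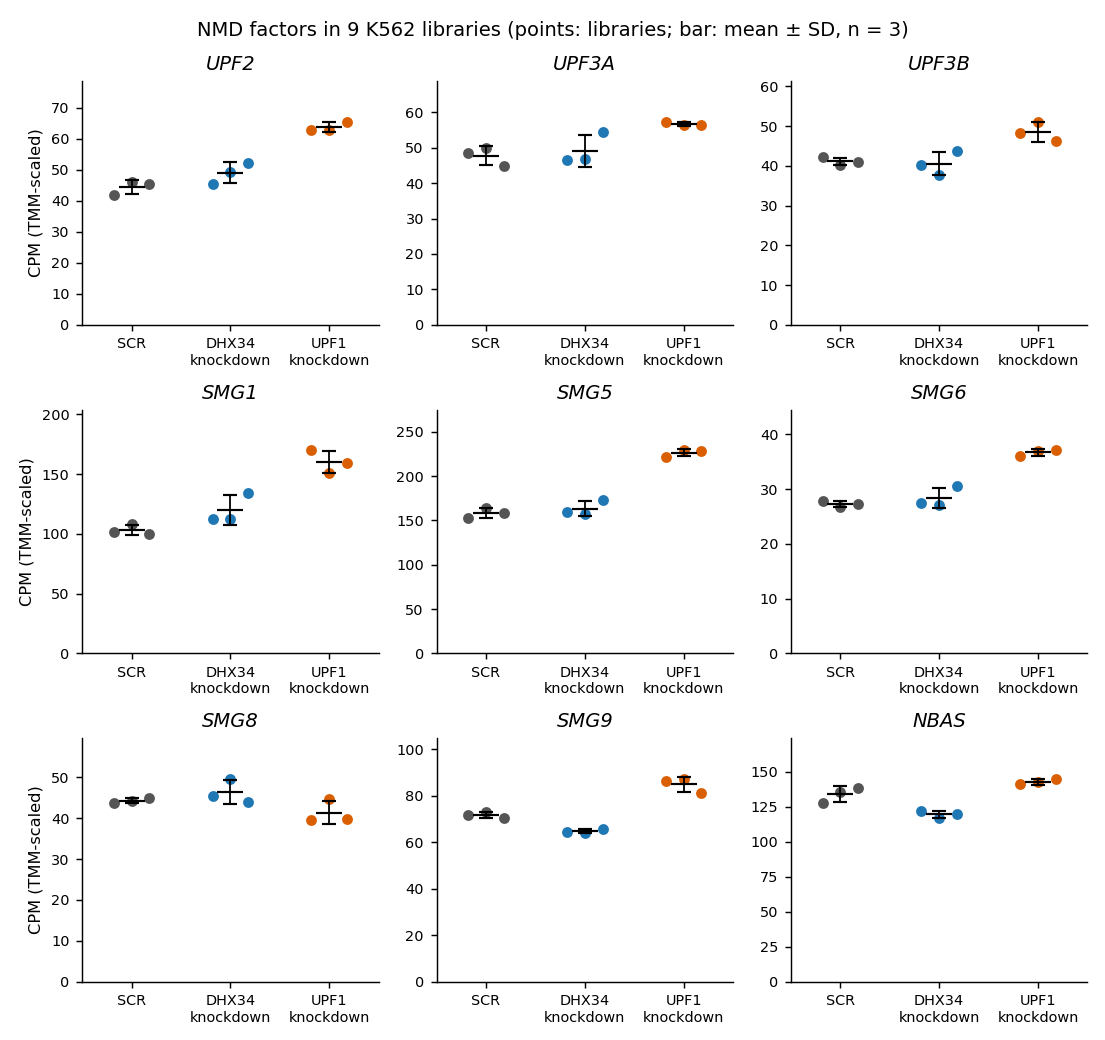
Level of each NMD factor gene in CPM (linear axis from 0) in the 9 libraries; points are libraries and black bars the mean ± SD of 3. For the 7 factors that rose, the 3 UPF1-depleted libraries all lie above the 3 SCR libraries. The DHX34-depleted libraries of these factors overlap SCR, except for SMG1, where they lie above it, and SMG9, where they lie below it.

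UPF2 (ENSG00000151461, chr10:11920022-12043170) encodes the adaptor that bridges UPF1 and the UPF3 proteins. It measured 41.9, 46.2 and 45.6 CPM in SCR, 45.5, 49.4 and 52.4 CPM in DHX34-depleted and 62.8, 62.9 and 65.6 CPM in UPF1-depleted libraries. The UPF1-depleted libraries stood above all others, with a log2 fold change against SCR of 0.51 (SE 0.043, edgeR adjusted p = 2.8e-06). The DHX34-depleted libraries overlapped SCR, at 0.14 (SE 0.057, edgeR adjusted p = 0.103).

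UPF3A (ENSG00000169062, chr13:114281601-114305817) and UPF3B (ENSG00000125351, chrX:119834022-119852998) are paralogues that bind the exon junction complex. UPF3A measured 48.6, 50.04 and 44.8 CPM in SCR, 46.4, 46.7 and 54.4 CPM in DHX34-depleted and 57.4, 56.4 and 56.4 CPM in UPF1-depleted libraries. UPF3B measured 42.2, 40.3 and 40.9 CPM in SCR, 40.2, 37.8 and 43.6 CPM in DHX34-depleted and 48.2, 51.1 and 46.2 CPM in UPF1-depleted libraries. Both genes were highest in the UPF1-depleted libraries without overlap with SCR, and in DHX34-depleted libraries both overlapped the SCR range, with library 3 the highest of its group. The log2 fold changes upon UPF1 depletion were 0.24 for UPF3A (SE 0.046, edgeR adjusted p = 0.00113) and 0.23 for UPF3B (SE 0.044, edgeR adjusted p = 0.0012). These were the 2 of the 7 calls that depended on single libraries. Without UPF1-depleted library 1, 2 or 3 in turn the edgeR adjusted p of UPF3A was 0.00747, 0.0054 or 0.00504, and UPF3B lost its call without SCR library 2 (0.00863) or 3 (0.00571) and without UPF1-depleted library 1 (0.00636) or 2 (0.00912).

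SMG1 (ENSG00000157106, chr16:18804860-18926408) encodes the kinase that phosphorylates UPF1. It had the largest log2 fold change of the 9 factors upon UPF1 depletion, 0.62 (SE 0.047, edgeR adjusted p = 1.16e-06). Its CPM were 101.6, 108.1 and 99.9 in SCR, 112.3, 112.5 and 134.0 in DHX34-depleted and 170.0, 151.0 and 159.0 in UPF1-depleted libraries. Both knockdowns lay above the SCR range, but the difference upon DHX34 depletion, 0.21 (SE 0.063), did not pass the test (edgeR adjusted p = 0.0308) and was 0.13 without DHX34-depleted library 3.

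The value of SMG1 is uncertain because chromosome 16 holds near-identical partial copies of the gene. Of all 31-base words of the transcript SMG1-201, 20.6% also occur in transcripts of the 9 gene identifiers annotated as copies. Among these, SMG1P5 and SMG1P7 are each listed under more than a single identifier. The shared words make up 28.8% within the coding sequence and 0 within the 3′UTR, and the last starts at base 4570 of 16062. The copies summed to 28.5, 29.0 and 26.8 CPM in SCR, to 28.1, 30.4 and 30.5 CPM in DHX34-depleted and to 80.1, 76.4 and 82.5 CPM in UPF1-depleted libraries. The copies were thus far more abundant in all 3 UPF1-depleted libraries than in any other library. Of the sum of SMG1 and its copies, the copies held 21.4% ± 0.435 in SCR and 33.3% ± 1.11 upon UPF1 depletion (SD, n = 3). SMG1P1 rose by 2.302 on the log2 scale (edgeR adjusted p = 9.7e-08) and SMG1P2 by 1.35 (edgeR adjusted p = 4.39e-07). The largest copy, SMG1P5 (ENSG00000291266), rose by 1.31 on the log2 scale from 13.8 to 34.5 CPM (edgeR adjusted p = 2.96e-09). When the copies were added to SMG1, its log2 fold change upon UPF1 depletion was 0.86 (edgeR adjusted p = 4.09e-08). How reads were divided between SMG1 and the copies was not tested. The copies of UPF3A were at 0.076 CPM or less on average in each group.

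**Figure D2:**
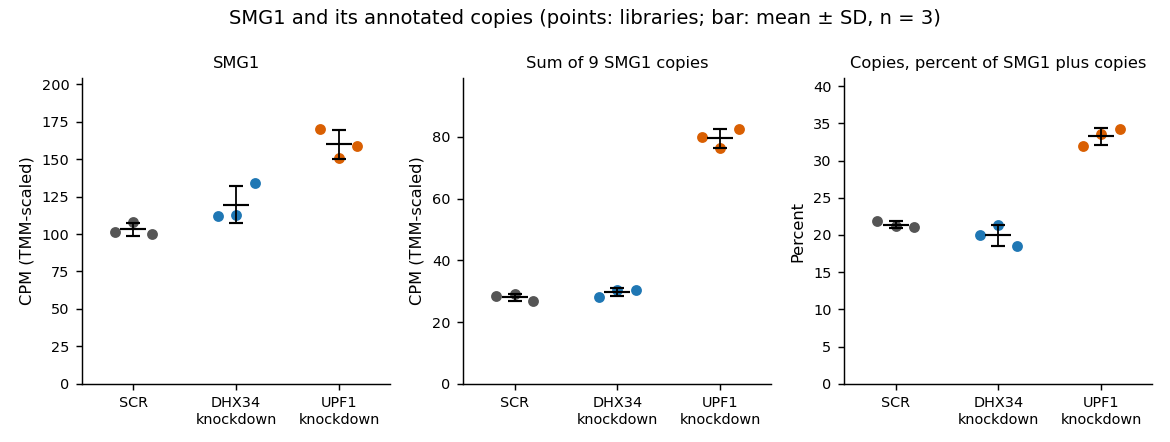
CPM of SMG1, summed CPM of the 9 gene identifiers annotated as its copies, and the copies as a percentage of SMG1 plus copies. Each of the 9 libraries is shown (linear axes from 0, bars are the mean ± SD of 3). The copies average 28.1 CPM in SCR and 79.7 CPM in UPF1-depleted libraries, and SMG1 103.2 and 160.0 CPM.

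SMG8 and SMG9 form a complex with SMG1 and restrain its kinase activity. SMG9 (ENSG00000105771, chr19:43727983-43754962) measured 71.5, 72.9 and 70.5 CPM in SCR, 64.4, 64.1 and 65.8 CPM in DHX34-depleted and 86.1, 87.3 and 81.2 CPM in UPF1-depleted libraries. The 3 groups did not overlap, with DHX34-depleted libraries lowest and UPF1-depleted libraries highest. The rise upon UPF1 depletion was 0.24 on the log2 scale (SE 0.037, edgeR adjusted p = 0.000286), and the difference upon DHX34 depletion, -0.15 (SE 0.037), had an edgeR adjusted p of 0.0133.

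SMG8 (ENSG00000167447, chr17:59209400-59215239) measured 43.7, 44.3 and 44.8 CPM in SCR, 45.5, 49.7 and 43.9 CPM in DHX34-depleted and 39.6, 44.6 and 39.8 CPM in UPF1-depleted libraries. All groups overlapped. Its log2 fold change upon UPF1 depletion was -0.11 (SE 0.047, edgeR adjusted p = 0.0916). Its TPM, which is relative to transcript length and was not scaled by the TMM factors, was 14.6 in SCR and 15.7 in UPF1-depleted libraries. The sign thus depends on the scale. A single transcript, SMG8-201, held 96.8% and 96.2% of this TPM in the same groups.

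SMG5 and SMG6 act on phosphorylated UPF1. SMG5 (ENSG00000198952, chr1:156249224-156282825), an adaptor for deadenylation, decapping and dephosphorylation, measured 153.3, 164.2 and 158.0 CPM in SCR, 159.8, 157.2 and 173.3 CPM in DHX34-depleted and 222.3, 229.5 and 228.2 CPM in UPF1-depleted libraries. SMG6 (ENSG00000070366, chr17:2059839-2303785), the endonuclease that cuts the target RNA, measured 27.8, 26.7 and 27.3 CPM in SCR, 27.5, 27.2 and 30.5 CPM in DHX34-depleted and 36.0, 36.9 and 37.1 CPM in UPF1-depleted libraries. For both genes the DHX34-depleted libraries overlapped SCR and the UPF1-depleted libraries stood apart. SMG5 rose by 0.51 on the log2 scale (SE 0.032, edgeR adjusted p = 2.7e-07), the smallest adjusted p of the 9 factors, and SMG6 by 0.42 (SE 0.04, edgeR adjusted p = 7.28e-06). With counts scaled by the length of the isoforms in use, the value of SMG6 was 0.13 (edgeR adjusted p = 0.127) while that of SMG5 was 0.50 (edgeR adjusted p = 4.08e-05). The share of SMG6 isoforms of unequal length also differed between these groups, as described below.

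NBAS (ENSG00000151779, chr2:15166916-15561340) acts in membrane trafficking and in an NMD branch at the endoplasmic reticulum. It measured 127.7, 135.5 and 138.4 CPM in SCR, 122.0, 116.8 and 119.7 CPM in DHX34-depleted and 140.9, 142.6 and 145.0 CPM in UPF1-depleted libraries. The groups did not overlap, but neither difference from SCR passed the test, with -0.17 upon DHX34 depletion (SE 0.039, edgeR adjusted p = 0.0101) and 0.09 upon UPF1 depletion (SE 0.033, edgeR adjusted p = 0.061). In the UPF1 comparison its sign turned with length-scaled counts, to -0.14.

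Upon DHX34 depletion, none of the 9 factors passed the test in either direction, while 10.4% of 17004 tested genes did, 5.54% higher and 4.86% lower. The median log2 fold change of the factors was 0.04, beside 0.02 over all genes. At an unadjusted edgeR p under 0.05, 6231 genes of all those tested would have been called. The CPM of 3 of the 9 factors, SMG1, SMG9 and NBAS, did not overlap between the DHX34-depleted and SCR libraries, against 41.5% of all genes. DESeq2 called NBAS and SMG9 lower. The comparisons with SCR share the SCR libraries, so the depletions were also compared with each other.

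In the direct comparison, 7 factors were higher in UPF1-depleted than in DHX34-depleted libraries and none was lower, against 9.89% and 7.47% of 17435 tested genes. The factors' CPM did not overlap for 8 of 9, against 45.7% of all genes. SMG5 differed by 0.48 on the log2 scale (SE 0.04, edgeR adjusted p = 5.98e-06), SMG1 by 0.43 (SE 0.068, 0.000677), SMG9 by 0.40 (SE 0.037, 1.6e-05), UPF2 by 0.39 (SE 0.051, 0.000181) and SMG6 by 0.38 (SE 0.051, 0.000222). NBAS (0.27, edgeR adjusted p = 6.77e-05) and UPF3B (0.27, 0.00402) completed the 7. For UPF3A, 0.22 with an edgeR adjusted p of 0.014, the rise upon UPF1 depletion was not shown to differ from the value upon DHX34 depletion. DHX34-depleted library 3 decided this, since without it the log2 fold change was 0.29 (edgeR adjusted p = 6.1e-05). UPF3B lost its call in this comparison when any library other than DHX34-depleted library 3 was left out (edgeR adjusted p from 0.00629 to 0.0245), and SMG1 without UPF1-depleted library 1 (0.00568).

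**Figure D3:**
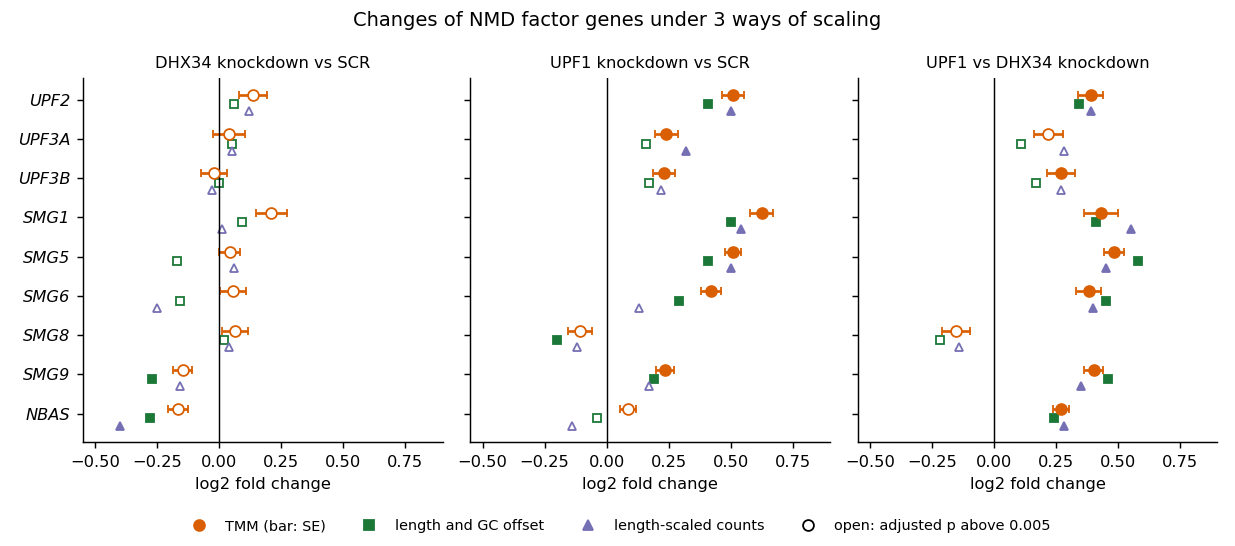
Log2 fold changes of the 9 factor genes in the 3 comparisons. Circles with SE bars are the TMM-scaled edgeR fit, squares the fit with an offset for transcript length and GC content, triangles the fit on length-scaled counts; filled symbols have an edgeR adjusted p of at most 0.005. In the UPF1 comparison the circles of 7 factors are filled on the right of 0, whereas in the DHX34 comparison no circle is filled.

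Fold changes over all tested genes were related to transcript length, with Spearman's rho of 0.15 upon UPF1 depletion and 0.213 upon DHX34 depletion, as a description across genes. With an offset that removed the trends of length and GC content, 5 of the 9 factors were called higher upon UPF1 depletion: SMG1 at 0.50, UPF2 at 0.41, SMG5 at 0.41, SMG6 at 0.29 and SMG9 at 0.19 on the log2 scale. UPF3A at 0.16 and UPF3B at 0.17 then missed the threshold, and SMG8 was called lower at -0.20. Under this offset the share of higher genes among all called genes moved from 49.0% to 31.5% upon UPF1 depletion. Upon DHX34 depletion it moved from 53.3% to 29.9%. The median log2 fold change over all tested genes moved from 0.016 to -0.054 upon UPF1 depletion. Upon DHX34 depletion that median moved from 0.018 to -0.034. How far this general shift lowered the factors' values was not tested.

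Levels were compared between genes by TPM, a transcript abundance per length, summed over all transcripts of a gene. On this sum, SMG9 was highest in SCR at 51.8 TPM (range 50.6 to 53.1), followed by SMG5 at 37.3 (35.9 to 40.3), UPF3A at 31.5 (28.4 to 34.5), NBAS at 25.5 (25.0 to 26.3) and UPF3B at 20.7 (20.1 to 21.0). SMG1 at 15.5 TPM (14.4 to 17.1) and SMG8 at 14.6 TPM (14.2 to 15.1) overlapped and could not be ordered. UPF2 at 9.25 TPM (8.59 to 9.86) and SMG6 at 5.69 TPM (5.60 to 5.79) were lowest. Adjacent factors other than SMG1 and SMG8 had no overlapping library values. The order depends on counting transcripts that are not protein coding, since 53.6% of the SMG9 TPM in SCR belonged to retained-intron transcripts. By protein-coding TPM alone the SCR means were 34.4 for SMG5, 25.4 for NBAS, 23.9 for SMG9, 20.6 for UPF3B, 17.2 for UPF3A, 14.5 for SMG8, 11.7 for SMG1, 9.25 for UPF2 and 3.82 for SMG6. Upon UPF1 depletion the TPM of SMG5 reached 61.3, of SMG1 26.2, of UPF2 15.2 and of SMG6 7.23. Unlike the CPM, these TPM were not scaled by the TMM factors.

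At the level of single transcripts, 3 of the members passed the test upon UPF1 depletion, all higher, against 0.97% of 62497 transcripts. They were the full protein-coding transcripts SMG5-201 (log2 fold change 0.46, SE 0.031, edgeR adjusted p = 0.00117), SMG6-201 (0.59, SE 0.042, 0.00131) and SMG1-201 (0.58, SE 0.06, 0.00315). SMG6 as a gene rose by 0.42, and its transcript SMG6-207 averaged 1.81 TPM in SCR and 0.252 upon UPF1 depletion, as described below. How far reads moved from SMG6-207 to SMG6-201 in the quantification was not tested. With the replicate number as a block, which treats same-numbered libraries as pairs, 0 of the members' transcripts were called upon UPF1 depletion. The leading transcript UPF2-202, at 0.49 (edgeR adjusted p = 0.00526), lay just outside the threshold. The leading transcripts of the other factors measured 0.25 for UPF3B-202 (edgeR adjusted p = 0.0278), 0.28 for NBAS-201 (0.0397), 0.34 for UPF3A-202 (0.0875), -0.16 for SMG8-201 (0.158) and -0.03 for the retained-intron transcript SMG9-210 (0.946). In the direct comparison of the depletions SMG5-201 (0.46, edgeR adjusted p = 0.00226) and UPF3B-202 (0.68, 0.00481) were higher in UPF1-depleted libraries, against 0.732% of 64325 transcripts. Upon DHX34 depletion edgeR called 0 of the members' transcripts, against 0.0463% of 60416. Of all transcripts there, 9208 had an unadjusted p under 0.05, and DESeq2 called 1 of the members' transcripts, UPF3B-202, lower.

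Isoform use was measured as the percentage that a transcript holds of the TPM of its gene, over the members' 36 transcripts that were abundant enough. Upon DHX34 depletion the shares of 10 of these did not overlap SCR, 4 higher and 6 lower, against 19.1% of all such transcripts. Upon UPF1 depletion 15 did not overlap, 7 higher and 8 lower, against 27.3%. Between the depletions 11 did not overlap, 7 higher and 4 lower in UPF1-depleted libraries, against 22.6%. With 3 libraries against 3 the exact two-sided permutation test cannot go below p = 0.10, before any adjustment over the 36 shares, so no share could pass 0.05. The shares of UPF3B-201, UPF3A-201, NBAS-205, NBAS-206, SMG1-202, SMG1-212 and SMG6-207 below were chosen after their values were seen.

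The isoform shares of UPF3B lay on opposite sides of SCR in the knockdowns. UPF3B-201, with the 39 nt exon, held 34.0%, 34.0% and 33.7% of UPF3B TPM in SCR, 47.5%, 42.2% and 55.6% in DHX34-depleted and 28.8%, 32.5% and 31.5% in UPF1-depleted libraries. All 3 DHX34-depleted libraries were above, and all 3 UPF1-depleted libraries below, the narrow SCR range. The difference from SCR was 14.5 percentage points upon DHX34 depletion and -2.97 points upon UPF1 depletion (exact permutation p = 0.1 for each, the smallest possible). The difference upon UPF1 depletion was -1.92 points without UPF1-depleted library 1. Shares of expected counts gave 34.5% ± 0.298, 49.0% ± 6.85 and 31.4% ± 1.84 (SD, n = 3) for the same groups, an alternative chosen after seeing the data. In TPM, UPF3B-201 averaged 7.01 in SCR and 11.1 in DHX34-depleted libraries, while UPF3B-202, without the exon, averaged 13.6 and 11.5. The total level of UPF3B in CPM upon DHX34 depletion had a log2 fold change of -0.02 (edgeR adjusted p = 0.806). Neither transcript passed the transcript test there, with edgeR adjusted p of 0.173 for UPF3B-201 and 0.0409 for UPF3B-202.

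UPF3A-201, which lacks the 99 nt exon, held 25.0%, 25.5% and 24.8% of UPF3A TPM in SCR, 27.7%, 26.1% and 20.3% in DHX34-depleted and 15.8%, 17.0% and 22.3% in UPF1-depleted libraries. Its share was lower in all 3 UPF1-depleted libraries than in SCR, with a mean difference of -6.75 points (exact permutation p = 0.1), and overlapped SCR upon DHX34 depletion. UPF3A-202, with the exon, held 24.0% on average in SCR and 24.8% upon UPF1 depletion, so the difference was not taken up by it. The transcripts of UPF3A with no defined coding sequence together held 31.2% ± 2.93 in SCR and 40.9% ± 1.89 upon UPF1 depletion (SD, n = 3). The retained-intron transcript UPF3A-212 held 12.03% in SCR, 9.76% upon DHX34 depletion and 8.05% upon UPF1 depletion, with no overlap between any of the groups.

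**Figure D4:**
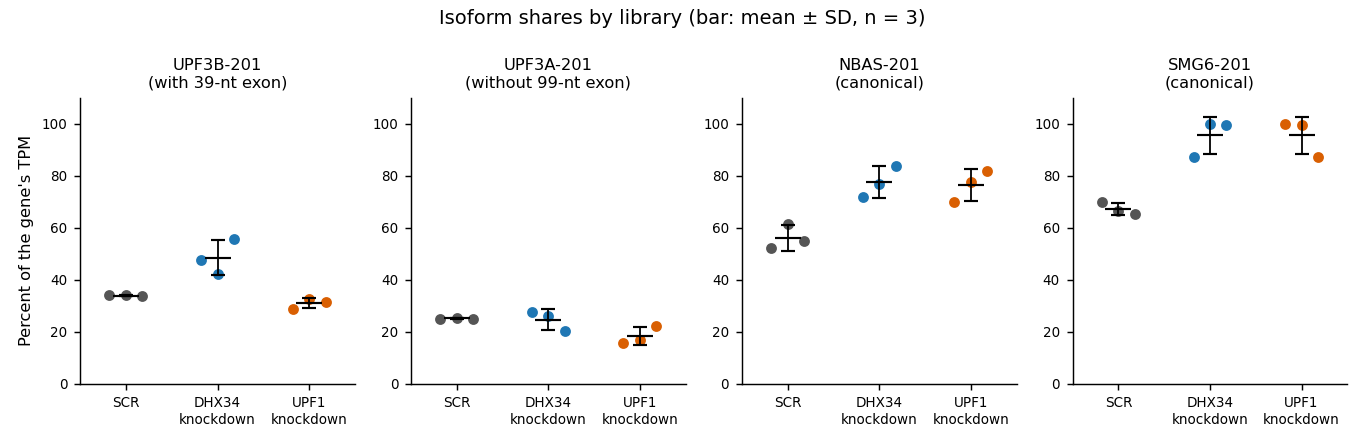
Share of the gene's TPM held by UPF3B-201, UPF3A-201, NBAS-201 and SMG6-201 in each of the 9 libraries, in percent on a linear axis from 0; bars are the mean ± SD of 3 libraries. UPF3B-201 is higher in DHX34-depleted libraries (48.4% on average) than in SCR (33.9%), while NBAS-201 and SMG6-201 are higher in both knockdowns than in SCR.

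NBAS-201 and SMG6-201, the canonical transcripts of their genes, held larger shares in both knockdowns. NBAS-201 held 52.1%, 61.6% and 54.8% of NBAS TPM in SCR, 71.9%, 76.8% and 84.0% in DHX34-depleted and 69.8%, 77.7% and 81.8% in UPF1-depleted libraries. The difference from SCR was 21.4 points upon DHX34 depletion and 20.3 points upon UPF1 depletion, and 14.3 and 13.5 points by expected counts. NBAS-206, a shorter protein-coding transcript, held 27.9% in SCR and 12.8% and 13.9% in the DHX34 and UPF1 knockdowns, and NBAS-205 held 15.6%, 9.44% and 8.98%.

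SMG6-201 held 69.9%, 66.5% and 65.4% of SMG6 TPM in SCR, 87.4%, 99.9% and 99.8% in DHX34-depleted and 99.9%, 99.7% and 87.5% in UPF1-depleted libraries. The counterpart was SMG6-207, a transcript of 2426 nt without a defined coding sequence, with expected counts of 276.6, 286.4 and 389.2 in SCR, 142.9, 0 and 0 in DHX34-depleted and 0, 0 and 158.2 in UPF1-depleted libraries. An expected count of exactly 0 beside large values in other libraries can be a failed estimate of the quantifier, and here only the listed values are given. The share of SMG6-201 was 28.4 points higher than in SCR in each knockdown by TPM, and 13.7 and 14 points higher by expected counts upon DHX34 and UPF1 depletion. Both comparisons use the same SCR libraries.

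Shares of SMG1 isoforms also differed from SCR upon UPF1 depletion. The short protein-coding transcript SMG1-202 held 6.20% of SMG1 TPM in SCR, 9.38% upon DHX34 depletion and 14.3% upon UPF1 depletion, and the 3 UPF1-depleted libraries lay above all others. SMG1-212, without a defined coding sequence, held 18.2%, 12.8% and 9.88% in the same order. The share of SMG1-201 was 37.7% in SCR, 43.6% upon DHX34 depletion and 39.8% upon UPF1 depletion. SMG1-202, of 1259 nt, lies in the 5′ part of SMG1, as do the words that SMG1-201 shares with the copies. How far reads of the copies enter these shares was not tested. For the remaining factors the leading transcript kept a high share in every group: 92.1%, 89.5% and 92.1% for SMG5-201, 96.8%, 98.1% and 96.2% for SMG8-201, and 88.3%, 86.9% and 89.7% for UPF2-202. In SMG9 the leading transcript was the retained-intron SMG9-210, with 43.6%, 40.8% and 38.7%.

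Isoforms annotated as NMD substrates contributed little to the members. SMG1, SMG8, SMG9 and NBAS each have 1 transcript of that biotype, and the other 5 factors have none. Its share of the gene's TPM was 0.484% in SCR, 1.39% upon DHX34 depletion and 0.939% upon UPF1 depletion for SMG1, 0.751%, 0.293% and 1.34% for SMG8, and 0.261%, 0.239% and 0.183% for SMG9, and it was listed at 0 for NBAS in SCR. The log2 ratio of these isoforms to the protein-coding ones was tested with limma for each gene, and 0 members passed an adjusted p of 0.05 in any comparison. Upon UPF1 depletion the ratio differed by 0.08 in SMG1 (limma adjusted p = 0.913), 0.56 in SMG8 (0.459) and -0.59 in SMG9 (0.254), beside a median of 0.46 over 3835 genes, of which 15.3% passed. Upon DHX34 depletion it differed by 0.36 in SMG1 (limma adjusted p = 0.915) and -0.07 in SMG9 (0.968), beside a median of 0.02 over 3690 genes, of which 0.271% passed. Between the depletions the differences were -0.28 in SMG1 (limma adjusted p = 0.832), 1.21 in SMG8 (0.113) and -0.51 in SMG9 (0.291), with 13.1% of 3898 genes passing. Among all genes, an unadjusted p under 0.05 was reached by 1246, 336 and 1168 in these 3 comparisons.

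Features that can make an mRNA an NMD substrate were read from the canonical transcripts. The 3′UTR measured 4709 nt in SMG1, 3613 nt in SMG9, 1649 nt in SMG6, 1363 nt in SMG5, 1276 nt in UPF2, 900 nt in UPF3A, 856 nt in UPF3B, 228 nt in SMG8 and 132 nt in NBAS. The canonical SMG9-201 held only 7.82% of SMG9 TPM in SCR, and the main coding transcript SMG9-211, with 32.7%, has a 3′UTR of 584 nt. The genes with the shortest 3′UTR, SMG8 and NBAS, are also those that did not pass the test upon UPF1 depletion, which is a description of 9 genes. A 3′UTR over 1000 nt was present in the canonical transcript of 5 of 9 members (55.6%), SMG9 among them, and in 55.8% of 10547 expressed genes. SMG5 and SMG9 each have 1 upstream open reading frame, defined as an ATG with an in-frame stop inside the 5′UTR. These are 2 of 9 members (22.2%), against 32.5% of expressed genes. UPF2 and SMG1 each have 1 ATG in the 5′UTR without such a stop and are not counted. None of the 9 has an exon junction more than 50 nt after its stop codon, a feature of 0.218% of expressed genes.

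Other NMD and exon junction genes were followed as a list of 28. Both siRNA targets are in this list and in its counts. Upon DHX34 depletion 3 rose and 5 fell, against 5.54% and 4.86% of all tested genes, with a median log2 fold change of -0.11. The rises were the helicase MOV10 (0.34, edgeR adjusted p = 0.00023), the exonuclease XRN1 (0.29, 0.0024) and the decapping factor DCP1A (0.26, 0.00376), and the largest falls were DHX34 (-1.23, 3.33e-07) and the exon junction proteins RBM8A (-0.24, 0.000557) and MAGOH (-0.23, 0.00126). With the length and GC offset the count was 0 higher and 5 lower, but the 5 were not the same genes. RBM8A (edgeR adjusted p = 0.012) and MAGOH (0.0763) then missed the threshold, while UPF1 was called lower (-0.28, 0.00159). Upon UPF1 depletion 7 rose and 12 fell, against 12.4% and 12.9% of all tested genes, with a median of -0.10. The rises included DCP1A (0.46, edgeR adjusted p = 1.6e-05) and XRN1 (0.35, 0.000205), and the largest falls were UPF1 (-1.31, 2.41e-10), the exon junction disassembly factor PYM1 (-0.32, 0.000168) and GNL2 (-0.25, 3.18e-05). With the offset this count was 6 higher and 16 lower. In the direct comparison 6 were higher and 1, UPF1, was lower in UPF1-depleted libraries, against 9.89% and 7.47% of all tested genes, and 4 and 4 with the offset. DHX34 (1.26, edgeR adjusted p = 3.45e-08) and the cap-binding subunit NCBP2 (0.52, 1.34e-06) were among the higher.

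The genes whose pattern over the 9 libraries was most like that of SMG1, by the root mean square difference of centred log2 CPM, were PDPR (0.06), ZNF93 (0.063), ZNF589 (0.064), VILL (0.067) and ARMCX3 (0.068), with a median of 0.298 over 10054 genes. Among the members UPF2 (0.085), SMG5 (0.095) and SMG6 (0.111) were closest to SMG1 on the same scale, and NBAS (0.243) and SMG8 (0.346) farthest.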

How the data were processed

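The 9 libraries of poly(A) RNA were grouped by their labels into SCR, DHX34 knockdown and UPF1 knockdown. Per the authors' methods and the submitters' processing notes, reads were quantified with Salmon, with a correction for GC bias, against Ensembl transcripts of GRCh38. The deposited tables give an expected count, a TPM and an effective length (a signal value, in bases) for each of 203027 transcripts. The authors' tables of sleuth effects, p-values and q-values, and of splicing differences (dPSI), were not used, since they hold the study's own comparisons. How Salmon divides reads between similar isoforms can therefore move isoform values.

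Transcripts were joined to GENCODE release 44 on GRCh38 by identifier, which matched 97.9%, and lengths were equal for 85.8% of these. Expected counts were summed per gene, rounded and tested by the quasi-likelihood method of edgeR 4.0.16 (R 4.3.3) with TMM factors and filterByExpr (minimum count 10), each comparison on its own 6 libraries. The authors tested with sleuth, which was not run here, and their threshold of 0.005 on adjusted p (Benjamini-Hochberg over all features) was kept. Transcripts were fitted likewise. NMD-isoform ratios, log2 of NMD-biotype over protein-coding TPM with a pseudocount of 0.1 TPM, for genes of at least 1 TPM with at least 0.1 TPM of the biotype, were tested with limma 3.58.1 at an adjusted p of 0.05. For isoform shares the exact permutation test (two-sided) was used. Alternatives included DESeq2 1.42.0, other size factors and filters, length-scaled counts, an offset for length and GC content, and leaving out each library. The fits were tested on simulated data. Cassette exon sequences were read from the GENCODE transcripts and checked against the genome.

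Same-numbered UPF1-depleted and SCR libraries deviated together over 10063 genes (r = 0.466, 0.114 and 0.297), so these numbers were treated as pairs in an alternative fit. The pairing was not clear for every library, since UPF1-depleted library 2 correlated more with SCR library 3 (r = 0.203). Same-numbered DHX34-depleted and SCR libraries gave r of -0.066, -0.184 and -0.403, and those of the depletions -0.178, 0.144 and -0.198. The numbers of these other comparisons were not taken to pair the libraries.

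The members and gene lists were chosen with earlier results of these data known. All members were named. Of their transcripts, those named were the most abundant of each gene, those called, and NMD-biotype or retained-intron transcripts of at least 0.5 TPM, of which the results turn on a few. From the list of 28 genes up to 3 rises and 3 falls were named. Some genes that these rules include are not reported here.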

Additional observations from a re-analysis of the deposited data

How the results depend on the processing

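The 7 rises upon UPF1 depletion were also called by DESeq2, with RLE size factors, without a filter, with the copies added, with the replicate block and at an adjusted p of 0.05. They numbered 4 with length-scaled counts (UPF2, UPF3A, SMG1 and SMG5), 6 in a fit of all 9 libraries and 5 to 7 when each library was left out. With the length and GC offset, with or without the replicate block, 5 factors were higher and 1 was lower. In the direct comparison of the depletions, leaving out a library gave 5 to 8 calls. Upon DHX34 depletion 0 members were called, but 2 by DESeq2, 2 without a filter (SMG1 higher, NBAS lower), 1 with length-scaled counts (NBAS), 2 with the length and GC offset (NBAS and SMG9, lower), 1 in a fit of all 9 libraries, and 3 at an adjusted p of 0.05 (1 higher and 2 lower).

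Transcript calls depended on the tool and the scaling. Upon UPF1 depletion 3 were called by edgeR, 8 by DESeq2 and 7 by limma on log2 TPM without TMM scaling. The count was 10 at an adjusted p of 0.05, 0 with the replicate block, and 0 to 1 when a library was left out. Between the depletions these numbers were 2, 8, 3, 7, 0 and 0 to 1. Upon UPF1 depletion the leading transcript of each factor was higher by limma than by edgeR, such as UPF2-202 at 0.71 against 0.49. Upon DHX34 depletion DESeq2 and the threshold of 0.05 each gave 1. For the NMD-isoform ratio, taking all isoforms that are not protein coding gave 1 call upon UPF1 depletion (SMG6, lower).

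Signs turned in the following cases, with log2 values. Upon DHX34 depletion SMG6 was -0.25 with length-scaled counts and -0.16 with the offset, and SMG5 was -0.17 with the offset, in each case also when the offset was combined with the replicate block. Leaving out a library gave -0.07 to 0.02 for UPF3B and -0.03 to 0.08 for UPF3A. Upon UPF1 depletion NBAS was -0.14 with length-scaled counts and -0.04 with the offset, with or without the block. By limma on TPM, which had no TMM scaling, SMG8-201 was 0.09 and SMG9-210 0.22. In the edgeR fit, leaving out a library gave -0.13 to 0.09 for SMG9-210. The SMG1 ratio was -0.37 upon DHX34 depletion and -0.93 upon UPF1 depletion with all isoforms that are not protein coding, and -0.54 upon UPF1 depletion with a pseudocount of 0.5 TPM. Leaving out a library gave -0.26 to 0.40 for SMG1 upon UPF1 depletion, -0.90 to 0.45 for SMG1 between the depletions, and -0.26 to 0.11 for SMG9 upon DHX34 depletion. Except where construction gives fewer samples, the cause was not tested.

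Shares of expected counts, added after seeing the data, moved NBAS-201 to 14.3 and 13.5 points and SMG6-201 to 13.7 and 14 points, upon DHX34 and UPF1 depletion. Among single gene values, 380 of 432 alternatives kept direction and side of the threshold, as did 220 of 270 for transcripts and 69 of 78 for ratios. The replicate block changed no other call upon UPF1 depletion. In the other comparisons same-numbered libraries did not all correlate positively. There the block left DHX34 genes at 0 and transcripts at 0, and between the depletions gave 6 genes and 0 transcripts. Depth limits the NMD-biotype isoforms, which held small shares, and 3 libraries per group limit every share.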
